A study of Mus musculus with 18 samples.

Results

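The genes described here are Srebf2 and 7 genes under its control, Insig1, Hmgcs1, Idi1, Fdps, Sqle, Cyp51 and Msmo1, which are a part of the cholesterol synthesis program. They were taken by symbol from the authors' deposited tables, each symbol matched 1 row, and they are 8 of the 13784 genes in each of 3 tables. The tables compare bulk RNA from mouse cortex between 4 groups: 4 saline-injected controls, 5 controls injected with lipopolysaccharide (LPS, a bacterial outer membrane component that sets off innate immune inflammation), and 4 saline-injected and 5 LPS-injected mice labelled as astrocyte-specific conditional knockouts (cKO) of Chd8, which encodes a chromatin remodeler. The mice were 4 to 6 months old, the LPS dose was 5 mg/kg by intraperitoneal injection, and the interval to tissue collection was 72 hours. The Cre driver, the alleles, the sex of the mice and the genotype of the controls are not given in the sources used here, and neither is whether littermates fell in different groups. The design asks how losing Chd8 from astrocytes changes cortical transcripts at rest and during neuroinflammation, and the deposited comparisons are LPS against saline in controls, LPS against saline in cKO mice, and cKO against control after LPS.

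Cells make cholesterol from acetyl-CoA through the mevalonate pathway and then a series of sterol steps that start from squalene. SREBP2, the protein encoded by Srebf2, is held in the endoplasmic reticulum membrane while sterol is plentiful, and when sterol falls its escort SCAP carries it to the Golgi, where proteases release the part that enters the nucleus and switches on the pathway's genes. INSIG proteins retain the SCAP complex when sterol is high. The brain makes nearly all of its own cholesterol, astrocytes and myelin-forming oligodendrocytes are major producers, and the tables do not separate these cells. In bulk cortex, fewer cells of a type and less RNA per cell cannot be told apart.

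The promoters of 4 of these genes are shown because their transcripts span the responses described below, from no detected change (Srebf2) through a fall past the threshold in controls alone (Insig1) to falls in both genotypes (Hmgcs1, Msmo1). Each is the 250 bases before the RefSeq start site on build GRCm38.p6, written 5′ to 3′ on the gene's strand, with capitals for matches to the sterol regulatory element or to the CCAAT box, which reads in reverse complement as ATTGG.
Srebf2, chr15:82147019-82147268, plus strand: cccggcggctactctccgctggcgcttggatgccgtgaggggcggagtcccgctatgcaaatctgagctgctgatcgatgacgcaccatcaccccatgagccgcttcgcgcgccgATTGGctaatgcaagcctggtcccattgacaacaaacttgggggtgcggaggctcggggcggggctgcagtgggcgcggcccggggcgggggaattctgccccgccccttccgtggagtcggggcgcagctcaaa
Insig1, chr5:28071162-28071411, plus strand: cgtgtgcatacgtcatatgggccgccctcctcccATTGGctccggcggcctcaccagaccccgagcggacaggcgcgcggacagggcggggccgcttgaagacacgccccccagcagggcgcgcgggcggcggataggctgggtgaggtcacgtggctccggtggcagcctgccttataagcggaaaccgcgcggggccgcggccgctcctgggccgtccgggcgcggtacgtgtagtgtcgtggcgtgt
Hmgcs1, chr13:119690101-119690350, plus strand: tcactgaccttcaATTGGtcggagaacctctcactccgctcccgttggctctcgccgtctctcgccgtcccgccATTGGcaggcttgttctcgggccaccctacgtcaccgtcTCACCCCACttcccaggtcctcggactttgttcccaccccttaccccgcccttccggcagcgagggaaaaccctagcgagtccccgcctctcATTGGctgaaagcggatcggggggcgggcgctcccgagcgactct
Msmo1, chr8:64733579-64733828, minus strand: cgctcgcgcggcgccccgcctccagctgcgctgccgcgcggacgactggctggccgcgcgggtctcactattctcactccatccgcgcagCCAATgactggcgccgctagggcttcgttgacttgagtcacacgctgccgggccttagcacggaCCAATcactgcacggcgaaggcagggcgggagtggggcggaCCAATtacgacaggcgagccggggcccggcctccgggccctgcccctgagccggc

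Windows were found for 6 of the 8 genes, the exceptions being Fdps and Sqle, and the search covered both strands of these 250 bases and of 50 bases after the start. The letters TCACNCCAC are a form of the sterol regulatory element that SREBP proteins bind. They occurred in 1 of the 6 windows, that of Hmgcs1, at bases -137 to -129 from the start. The share was 1.24% of all 32851 windows and 1.4% of the windows of measured genes. CCAAT, the box bound by NF-Y, a usual partner of SREBP proteins, was found in all 6 windows, against 37.4% of all windows and 42.9% of the windows of measured genes. GGGCGG, the box bound by Sp1-type factors, was also found in all 6, against 35.7% of all windows and 69.4% of those of measured genes. In these 6 windows no match of one motif overlapped a match of another. Hmgcs1 carried 3 CCAAT boxes before its start and Msmo1 carried 3, while Srebf2 and Insig1 carried 1 each. Cyp51 and Idi1, whose transcripts also fell in both genotypes, carried fewer than Hmgcs1 and Msmo1. The box began at base -29 in Cyp51 and at -45 and -14 in Idi1. The number of boxes was not tested against the responses. Among 13 other cholesterol synthesis enzymes with a window, 12 held CCAAT, 11 held GGGCGG and 0 held TCACNCCAC. A match describes letters in this window and is not a measured binding site. Only this 1 form of the sterol regulatory element was searched, so a window without it may hold another form.

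Several features of the groups bear on what follows. Chd8 itself, in the authors' deposited tables, was 0.34 ± 0.08 higher on the log2 scale (SE) after LPS in controls (FDR, the p-value adjusted over all genes, 0.0312) and 0.45 ± 0.07 higher in cKO mice (FDR 0.00597). Between cKO and control after LPS its log2 difference was 0.02 ± 0.05 (FDR 0.901), so bulk cortex showed no detectable loss of the transcript, and its level in astrocytes alone is not in these values. The Y-linked transcript Ddx3y had estimated group levels of -7.19 log2 CPM (reads scaled to the library total) in saline controls, 3.68 in LPS controls, 5.87 in saline cKO and 5.71 in LPS cKO mice, and Xist, expressed from the inactive X, had 7.47, 7.33, 4.35 and 5.91 in the same order. Y-linked RNA was thus close to absent in the saline controls and present in the other groups. The sum of the choroid plexus markers Ttr, Kl and Clic6 (3 of 5 listed markers measured, Folr1 and Aqp1 having no row) was 114 CPM in saline controls, 11.4 in LPS controls, 117 in saline cKO and 22.1 in LPS cKO mice, and none of the 3 passed the test in either LPS comparison. Most of the sum in saline controls was Ttr, at 6.72 log2 CPM, beside 2.44 for Kl and 1.68 for Clic6. In LPS controls they had 2.69, 1.69 and 0.77, and the deposited change of Ttr was -4.03 ± 1.96. The part that either difference has in the results below was not tested.

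After LPS 7 of the 8 genes fell in control mice. Of these Msmo1 fell by 41.8%, the most, and Cyp51 fell by 27.2%, the least, while Srebf2, which encodes the factor that drives them, did not pass the test. By the authors' deposited table, 3.31% of all genes were lower and 6.46% higher at FDR below 0.05 in this comparison. The median log2 fold change of the 8 genes was -0.51, and that of all genes was -0.0027. Because the 8 genes were chosen with earlier results of these data known, this and the later medians do not test them as a set.

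Msmo1, which removes methyl groups from the sterol ring, had an estimated group level of 6.62 log2 CPM in saline controls and 5.84 in LPS controls. Its change in the authors' deposited table was -0.78 ± 0.09 on the log2 scale (95% interval -0.99 to -0.57, FDR 0.00122). Hmgcs1, which makes HMG-CoA at the head of the mevalonate pathway, went from 8.56 to 8.02 log2 CPM, a deposited change of -0.54 ± 0.06 (interval -0.68 to -0.40, FDR 0.00122). These were the 2 genes with the lowest p-values of the 8, each changed by more than 8 times its SE.

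Insig1, a retention factor that is itself an SREBP target, went from 6.69 to 6.03 log2 CPM, a change of -0.66 ± 0.13 in the authors' deposited table (interval -0.96 to -0.36, FDR 0.0188). Fdps, which builds farnesyl diphosphate, the last shared precursor of sterols and other isoprenoids, went from 5.77 to 5.19 log2 CPM, and its deposited change was -0.58 ± 0.09 (interval -0.79 to -0.38, FDR 0.0055). The other 3 enzymes fell by nearly the same amount. Idi1, which interconverts the isoprene building blocks upstream of Fdps, changed by -0.47 ± 0.08 (FDR 0.0108, the authors' deposited table). Sqle, the oxygenase that commits squalene to sterols, changed by -0.47 ± 0.08 (FDR 0.00834), and Cyp51, the demethylase of lanosterol, by -0.46 ± 0.09 (FDR 0.0151), in the same deposited table.

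Srebf2 stood apart from its targets: its level was 7.34 log2 CPM in saline and 7.28 in LPS controls, and its change in the authors' deposited table was -0.06 ± 0.06 (interval -0.20 to 0.08, FDR 0.560). The interval does not reach the fall of any of the other 7 genes. The intervals of the 7 genes that fell all overlap.

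In cKO mice 4 of the 8 genes fell after LPS, Hmgcs1, Idi1, Cyp51 and Msmo1. Hmgcs1 fell by 26.4%, the least of the 4, and Cyp51 and Idi1 fell by 29.9%. Those 4 also fell in controls, and Insig1, Fdps and Sqle passed the test in controls alone. Over all genes, the authors' deposited table for this comparison has 8.52% lower and 10.9% higher. The median of the 8 genes was -0.35, against -0.0013 over all genes. The call in cKO mice depends on the fold changes' trend with gene GC content and length: with that trend removed 1 of the 4 passed (Cyp51, adjusted p 0.0254), and Hmgcs1, Idi1 and Msmo1 had adjusted p of 0.0705, 0.0884 and 0.0685, with log2 changes of -0.37, -0.42 and -0.43. This form of the removal was adopted after the output of a first form, which left 3 of the 4, was seen.

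Cyp51 and Idi1 had the same deposited change in cKO mice, -0.51 on the log2 scale. For Cyp51 the SE was 0.11 (interval -0.77 to -0.26, FDR 0.0174) and its estimated level went from 6.32 to 5.81 log2 CPM; the authors' deposited table gives Idi1 an SE of 0.15 (interval -0.85 to -0.17, FDR 0.0435), with levels of 5.91 and 5.40. Hmgcs1 changed by -0.44 ± 0.12 (FDR 0.0343) and Msmo1 by -0.47 ± 0.14 (FDR 0.0448) in the same deposited table, from 8.59 to 8.14 and from 6.70 to 6.24 log2 CPM. Every one of the 7 target genes had a larger SE in cKO mice than in controls.

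The 3 genes that passed in controls alone had smaller point estimates in cKO mice. Insig1 had 6.55 log2 CPM in saline and 6.47 in LPS cKO mice, a change of -0.08 ± 0.14 in the authors' deposited table (interval -0.40 to 0.24, FDR 0.706). Fdps gave -0.26 ± 0.12 (interval -0.54 to 0.01, FDR 0.156) and Sqle -0.20 ± 0.11 (interval -0.44 to 0.04, FDR 0.215) in that deposited table. Both intervals reach from no change past a decrease of 0.4, so a fall of that size was not excluded by these data. Srebf2 changed by -0.02 ± 0.06 (interval -0.15 to 0.11, FDR 0.839; the authors' deposited table), the smallest change of the 8 in both genotypes.

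**Figure D1:**
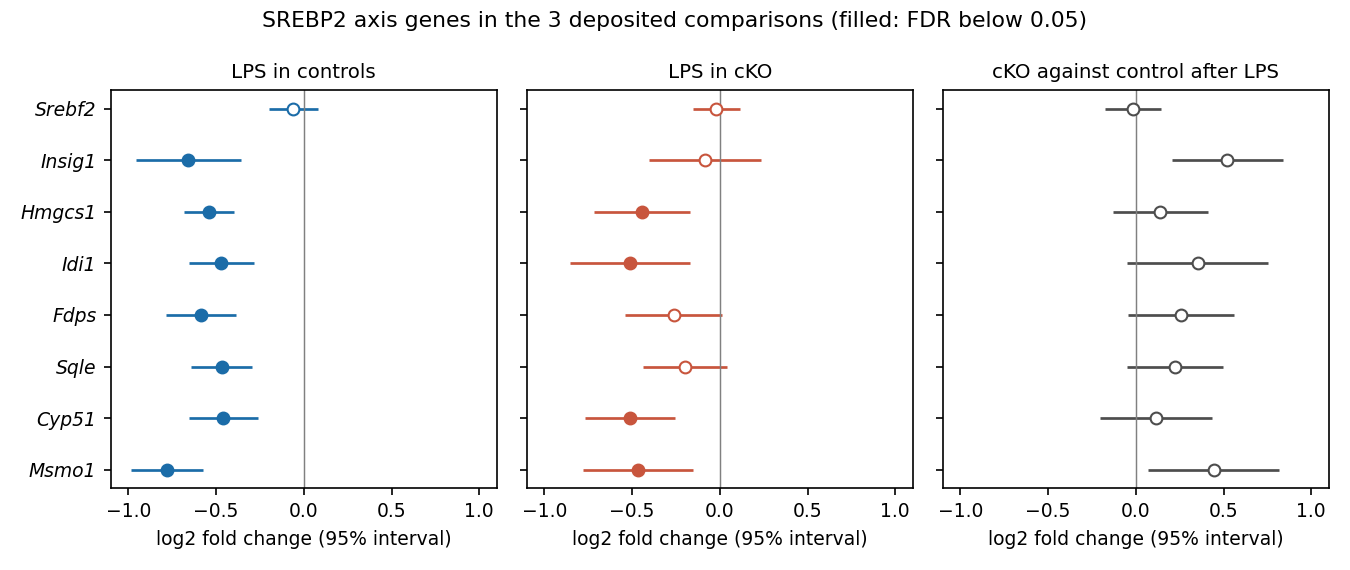
Log2 fold change (x axis, with 95% interval) of each of the 8 genes in the 3 deposited comparisons, LPS minus saline in controls (left) and in cKO mice (middle) and cKO minus control after LPS (right); filled points have FDR below 0.05. In controls 7 points are filled and lie between -0.78 and -0.46, in cKO mice 4 are filled, and in the right panel none is.

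Whether the response to LPS differed between genotypes was tested by the difference of the 2 log2 fold changes, which come from separate mice. None of the 8 genes passed after adjustment over all genes, and 0.00725% of all genes did. At an unadjusted p under 0.05 there was 1 of the 8 and 899 of all 13784 genes. The difference, cKO minus control, was above 0, a smaller fall in cKO mice, for 6 of the 8 genes, with a median of 0.18 against -0.0004 over all genes.

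Insig1 had the largest difference, 0.58 ± 0.24 on the log2 scale (95% interval 0.10 to 1.05, p = 0.0177, adjusted p = 0.672), from changes of -0.66 and -0.08 in the authors' deposited tables. With standard errors taken from the F statistics its adjusted p was 0.410. For Fdps the difference was 0.32 (interval -0.08 to 0.72), for Msmo1 0.32 (-0.17 to 0.80) and for Sqle 0.27 (-0.06 to 0.60). Hmgcs1 (0.10), Srebf2 (0.04), Idi1 (-0.04) and Cyp51 (-0.05) had differences smaller than their SEs. Passing the threshold in controls and not in cKO mice was therefore not a difference between genotypes that these data could show for Insig1, Fdps or Sqle.

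**Figure D2:**
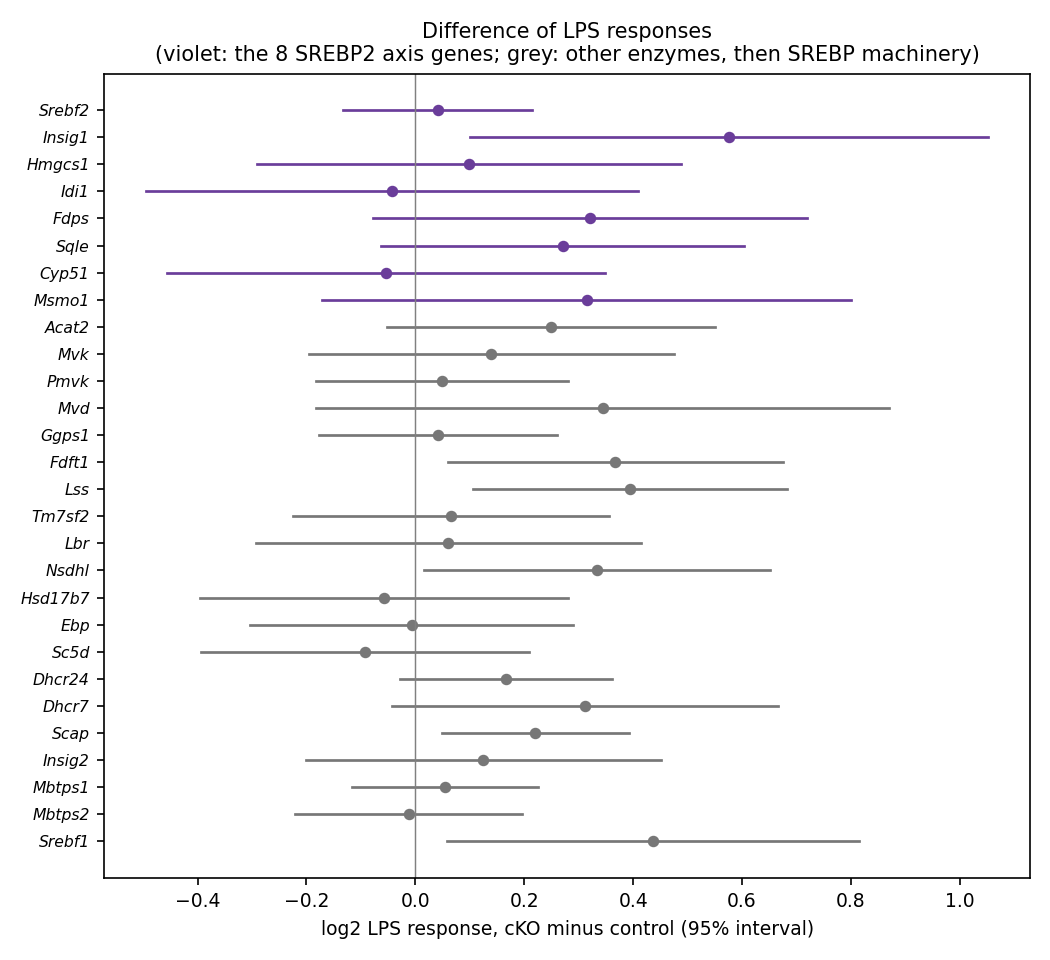
Difference of the LPS responses, cKO minus control on the log2 scale (x axis, points with 95% intervals), for the 8 genes (violet), other cholesterol synthesis enzymes and 5 genes of the SREBP machinery (grey). Insig1 is the highest violet point at 0.58, its interval lies above 0 before adjustment, and no gene in the plot passed after adjustment over all genes.

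After LPS, no gene of the 8 differed between cKO and control mice at FDR below 0.05, in the authors' deposited table in which 0.00725% of all genes, a single gene, did. This comparison shares its LPS mice with both LPS comparisons, and its values are given side by side with theirs. In it 7 of the 8 genes had positive point estimates, with a median of 0.24 against 0.0016 over all genes, and 2 had an unadjusted p under 0.05, as did 12.3% of all genes. They were Insig1, at 0.52 ± 0.14 (interval 0.20 to 0.84, FDR 0.282), and Msmo1, at 0.45 ± 0.16 (interval 0.07 to 0.82, FDR 0.345), in the authors' deposited table. Idi1 stood at 0.35 ± 0.18 (FDR 0.451), Fdps at 0.26 ± 0.13 (FDR 0.462), Sqle at 0.22 ± 0.12 (FDR 0.480), Hmgcs1 at 0.14 ± 0.12 (FDR 0.655) and Cyp51 at 0.11 ± 0.14 (FDR 0.770), by that deposited table. Srebf2 stood at -0.01 ± 0.07 (FDR 0.955), with an interval from -0.17 to 0.14.

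The 3 deposited changes can be added to place all 4 groups on a log2 scale relative to saline controls. Insig1 was then -0.66 in LPS controls, -0.05 in saline cKO and -0.14 in LPS cKO mice, so LPS controls were the low group. Msmo1 was -0.78, 0.13 and -0.34 in the same order, and Hmgcs1 -0.54, 0.04 and -0.40. Idi1 had the highest saline cKO estimate, 0.39, with -0.47 in LPS controls and -0.12 in LPS cKO mice. Cyp51 gave -0.46, 0.17 and -0.34, Fdps -0.58, -0.06 and -0.33, Sqle -0.47, -0.05 and -0.24, and Srebf2 -0.06, -0.06 and -0.07. For 7 of the 8 genes, all but Srebf2, LPS controls were the lowest of the 4 groups. The saline cKO values have no test here, because no table compares the genotypes at rest. Their median over the 8 genes was -0.003, and 4 of the 8 were above 0. The log2 CPM levels given above were solved from each LPS comparison on its own and do not match these sums exactly. For Insig1 they were 6.69 in saline controls, 6.55 in saline cKO and 6.47 in LPS cKO mice, a wider gap between genotypes at rest than the sum gives.

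**Figure D3:**
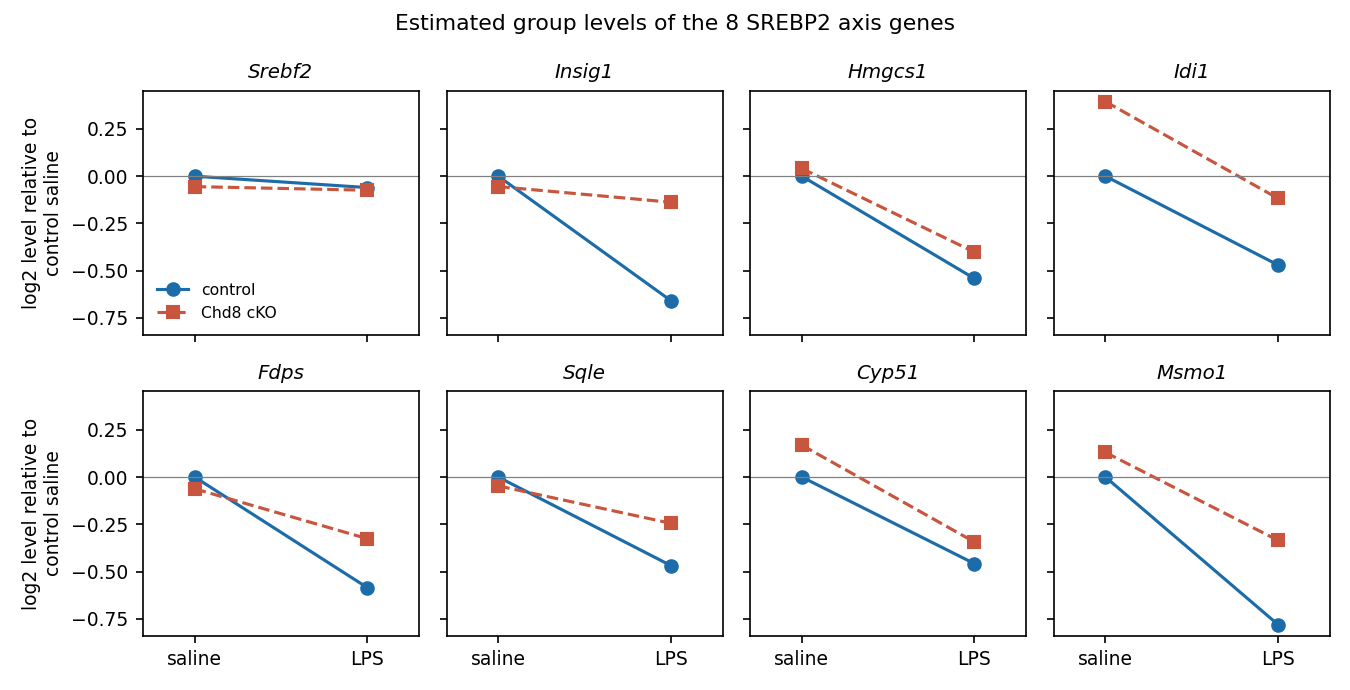
Estimated group levels of the 8 genes, as log2 level relative to saline controls (y axis), in saline and LPS groups (x axis) of control (blue circles, solid) and Chd8 cKO mice (red squares, dashed); points are sums of deposited fold changes and carry no error bars. The Insig1 line falls to -0.66 in controls and stays between -0.05 and -0.14 in cKO mice, and the Srebf2 lines are flat.

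The other enzymes of the synthesis pathway were read from a list of 16. After LPS in controls 5 of the 16 fell, beside 3.31% of all genes, in the authors' deposited table, among them Mvd by 0.63 on the log2 scale (FDR 0.0223), Fdft1 by 0.43 (FDR 0.00751), Acat2 by 0.40 (FDR 0.0379) and Sc5d by 0.31 (FDR 0.0428). Fdft1 makes squalene, the substrate of Sqle, and Mvd makes the isoprene unit that Idi1 interconverts. None rose, all 16 point estimates were below 0, and the median was -0.28. In cKO mice 2 of the 16 fell (12.5%, near the 8.52% of all genes), Hsd17b7 (-0.40, FDR 0.0166) and Sc5d (-0.40, FDR 0.0103) by the authors' deposited table, and the median was -0.14 with 12 of 16 below 0. After LPS, 0 of the 16 differed between cKO and control mice, with 12 of 16 above 0 and a median of 0.14; Lss, which closes the sterol ring, had the lowest p among them, at 0.31 (FDR 0.291, the authors' deposited table). None passed the test of the difference of responses, where Lss had 0.39 (adjusted p = 0.535) and Fdft1 0.37 (adjusted p = 0.683).

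Of 5 further genes of the SREBP machinery, Scap, Insig2, Mbtps1, Mbtps2 and Srebf1, 0 passed in controls and 2 rose in cKO mice, where 10.9% of all genes were higher. Srebf1, which encodes the factor that mainly drives fatty acid synthesis, rose by 0.59 ± 0.11 in cKO mice (FDR 0.00933), against 0.16 ± 0.09 in controls (FDR 0.294), in the authors' deposited tables. Scap, the escort, rose by 0.20 ± 0.04 (FDR 0.0147) in cKO mice, against -0.02 ± 0.06 in controls (FDR 0.891; the authors' deposited tables). The differences of response, 0.44 for Srebf1 (adjusted p = 0.683) and 0.22 for Scap (adjusted p = 0.641), did not pass.

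Targets outside cholesterol synthesis were read from a list of SREBP2 targets in sterol uptake and transfer and a list of SREBP1 targets in fatty acid synthesis. Of the 5 uptake and transfer genes, 1 fell in controls, beside 3.31% of all genes: Tmem97, a sterol-binding membrane protein, by 0.38 (FDR 0.0273, the authors' deposited table), and 0 of 5 passed in cKO mice. Of 10 fatty acid synthesis genes, 2 fell in controls, Acss2 (-0.44, FDR 0.00278) and Scd1 (-0.45, FDR 0.0145), while in cKO mice Scd2 rose (0.51, FDR 0.00653) and Me1 fell (-0.32, FDR 0.0199), all in the authors' deposited tables. In the other genotype Acss2 had -0.39 (FDR 0.0534), Scd1 -0.21 (FDR 0.0755), Scd2 0.21 (FDR 0.326) and Me1 -0.16 (FDR 0.165) there. None of these genes passed the test of the difference of responses. The share of these 10 genes lower in controls was 20%, against 3.31% of all genes, and in cKO mice 10% were higher and 10% lower, near the 10.9% and 8.52% of all genes. Acss2 makes acetyl-CoA from acetate, Scd1 and Scd2 are desaturases, and Me1 supplies NADPH. Fads2, another desaturase, had the lowest FDR of these 10 between cKO and control mice after LPS, 0.147, at 0.34 ± 0.06 in the authors' deposited table.

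Of 6 measured genes that remove or sense excess sterol, 1 rose in each genotype, beside 6.46% of all genes in controls and 10.9% in cKO mice, and the median was 0.05 in both. Abca1, the exporter that loads cholesterol onto apolipoproteins, rose by 0.62 ± 0.10 in controls (FDR 0.00853), and Nr1h2, which encodes the sterol-sensing receptor LXR beta, rose by 0.45 ± 0.11 in cKO mice (FDR 0.0213), by the authors' deposited tables. In the other genotype Abca1 had 0.39 (FDR 0.102) and Nr1h2 0.41 (FDR 0.0556) there. Of 4 genes of sterol-regulated protein degradation, 0 passed in any comparison, where 3.31% of all genes were lower in controls and 8.52% in cKO mice. Point estimates were below 0 for all 4 in controls and 3 in cKO mice. At an unadjusted p under 0.05 there were 2 in controls and 1 in cKO mice, beside 28.9% and 35.8% of all genes. The lowest p was that of Rnf139, -0.22 (FDR 0.107) in controls and -0.26 (FDR 0.0611) in cKO mice in the authors' deposited tables.

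**Figure D4:**
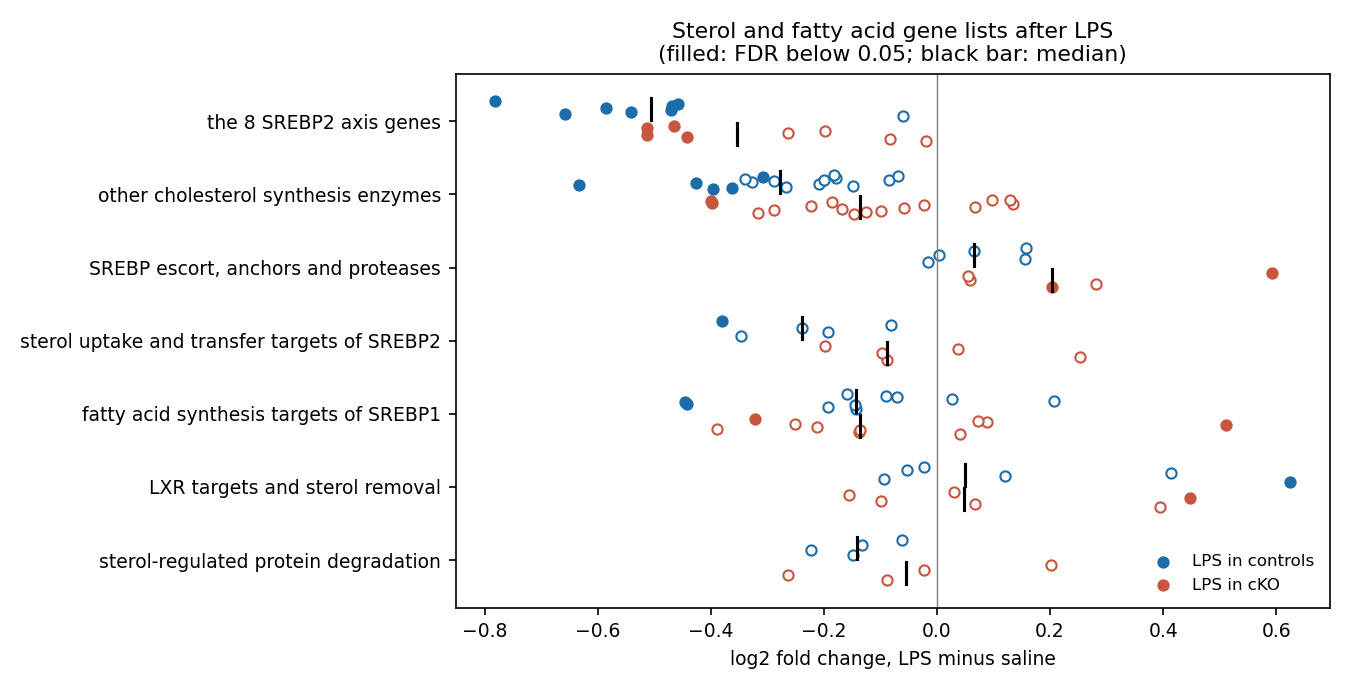
Log2 fold change, LPS minus saline (x axis), of every measured gene of 7 sterol and fatty acid lists (y axis) in controls (blue) and cKO mice (red); filled points have FDR below 0.05 and black bars are medians. The 8 SREBP2 axis genes have the lowest medians, -0.51 in controls and -0.35 in cKO mice, and the SREBP escort, anchor and protease list lies at or above 0 apart from Scap in controls. The 8 genes and the lists were chosen with earlier results of these data known, so the order of the medians is not a test.

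Markers of several cell types also changed after LPS. For the counts below, 6.46% of all genes were higher and 3.31% lower in controls, and 10.9% and 8.52% in cKO mice. Bcas1, which marks newly forming oligodendrocytes, fell by 1.05 in controls (FDR 0.00684) and by 0.75 in cKO mice (FDR 0.00709) in the authors' deposited tables. It was the single gene past the threshold of 4 markers of newly forming oligodendrocytes and their precursors, whose summed level was 189 CPM in saline controls, 144 in LPS controls, 191 in saline cKO and 150 in LPS cKO mice. Without Bcas1 the sum was 102, 102, 98.6 and 95.4 CPM, so the drop in controls was that of Bcas1. Of 8 mature oligodendrocyte markers, 0 passed in controls and 2 in cKO mice, Fa2h (0.94, FDR 0.00432) and Ugt8a (-0.46, FDR 0.0349) in the authors' deposited table. In cKO mice that is 12.5% higher and 12.5% lower, near the shares of all genes. The summed levels were 2446, 2344, 2419 and 2301 CPM in the same order of groups. Of 8 astrocyte markers, Gfap rose (1.35, FDR 0.000286) and Aqp4 fell (-0.22, FDR 0.0385) in controls, and 4 fell in cKO mice, among them Slc1a3 (-0.45, FDR 0.0138), in the authors' deposited tables. The summed astrocyte levels were 4052, 3924, 4671 and 4154 CPM, and by single marker 3 of the 8 were lowest in LPS controls, 3 in LPS cKO and 2 in saline controls. Of 5 microglial markers 3 rose in controls, among them Aif1 (1.28, FDR 0.00122) and Csf1r (0.94, FDR 2.04e-05), and in cKO mice 2 rose and P2ry12 fell (-0.58, FDR 0.0145), in the authors' deposited tables. Of 4 endothelial markers 2 rose in controls, Pecam1 (1.04, FDR 0.000148) and Cldn5 (0.92, FDR 0.00272), and 3 in cKO mice, by the authors' deposited tables. In the genotype where they did not pass, Fa2h had 0.64 (FDR 0.0873), Ugt8a -0.33 (FDR 0.311) and P2ry12 -0.37 (FDR 0.0997) in controls. Gfap had 1.06 (FDR 0.0548) in cKO mice, all by the authors' deposited tables. No marker of these cell types passed the test of the difference of responses. In the same order of groups the summed levels were 166, 244, 166 and 198 CPM for microglia and 109, 166, 107 and 151 CPM for endothelium. The summed level of the 8 genes themselves was 981, 708, 993 and 796 CPM. The part of these markers in the results was not tested.

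The genes whose pattern lay nearest to that of the 8 were found by the distance of their 3 deposited log2 fold changes from the 8 genes' medians, over 10363 genes with a symbol and a mean of at least 3 log2 CPM. They were Hspa1b (distance 0.0249), Tmem144 (0.0641), Coq8a (0.0723), Nadk2 (0.0763) and Gabrg1 (0.0850). Hspa1b, an inducible heat shock protein, had the nearest values but passed in neither LPS comparison (FDR 0.117 and 0.353, the authors' deposited tables). Nadk2, the mitochondrial NAD kinase, passed in both, at -0.48 (FDR 0.00215) in controls and -0.28 (FDR 0.0397) in cKO mice in the authors' deposited tables, and so did Coq8a and Gabrg1. Of the other synthesis enzymes Mvd lay nearest, at rank 20.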

How the data were processed

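Bulk cortex RNA of 18 mice in 4 groups was read from 3 tables of the authors' comparisons. The submitters' processing notes name the build GRCm39 and the tools edgeR 3.30.3, RSEM, STAR and cutadapt 3.5, with no role or order. The deposited columns are log2 fold change, mean log2 CPM, F (a score), p-value and FDR. No per-library values were analysed here, so depth is unknown and the spread between mice is seen only through the standard error, |log2 fold change| over the root of the deposited F score. Intervals use t with the degrees of freedom that turn F into p (9.85, 9.76 and 8.66). P-values weigh a difference between groups against the spread between the samples of a group. The headers do not name the direction of change: with LPS minus saline and cKO minus control, the levels of a shared LPS group computed from 2 tables differed by an SD of 0.0537 (controls) and 0.0503 (cKO) log2 units, and with any sign turned the larger SD was at least 0.226.

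Group levels were solved from mean CPM, group size and fold change, a form adopted in place of an average of logs after the output of the direction check was seen. Calls were FDR below 0.05, over all genes. The difference of LPS responses took each standard error from the normal z that corresponds to the authors' p-value, with Benjamini-Hochberg adjustment over 13784 genes, and was tested on simulated data. Genes named were the 8, listed genes past the threshold, the lowest p of a list with none, the 5 nearest in pattern, and Chd8; the markers and the response differences of single genes were chosen after their values were seen. Some listed genes are not reported here. The 8 genes and the lists were chosen with earlier results of these data known. Of the genes, 757 had no symbol. Promoters are from RefSeq (GRCm38.p6). Python 3.11.15, scipy 1.17.1 and pandas 2.3.3 were used.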

Additional observations from a re-analysis of the deposited data

How the results depend on the processing

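The count of the 8 genes lower in controls, 7, was also 7 at FDR 0.10, among genes of at least 1 mean log2 CPM, after centring, and after removal of the trend with GC content and length; it was 4 at FDR 0.01 and 2 with a minimum fold change of 1.5. In cKO mice the count of 4 was 0 at FDR 0.01, 0 with that minimum fold and 1 without the trend of GC and length (quadratic in both, longest GENCODE M21 transcript, median of all genes kept; 13730 of 13784 genes covered). The way the trend was centred was changed after seeing its output. As first run, the residual mean in place of the median was set to the deposited median, and the form with the median kept was chosen after seeing the data. In the version first run the cKO count was 3 and Idi1 alone lost its call (adjusted p 0.0647). That version moved the calls of all genes from 890 higher and 456 lower to 562 and 827 in controls, and from 1506 and 1175 to 920 and 1458 in cKO mice, against 661 and 338, and 1117 and 925, with the median kept, and it turned the sign of Srebf2 in cKO against control after LPS to 0.0027. The other synthesis enzymes went from 5 to 1 in controls and from 2 to 0 in cKO mice at FDR 0.01. The causes were not tested. Counts of 0, between genotypes after LPS and for the difference of responses, were 0 under each alternative run. Of 24 single values, centring changed no call and removing the trend with the median kept ended 3. No paired analysis was possible because the tables hold no per-library values, and for the same reason no mouse could be left out; the depth behind each value is unknown.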
